A study of Mus musculus with 21 samples.

Results

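Adora2a, Ankrd63, Tmem121b, Vstm2l and Dact2 are 5 of the 24984 genes in a count table of nascent RNA from mouse cortical cultures. They were chosen by name because earlier results from these libraries had placed them among the genes most strongly lowered by bicuculline. Their differences between bicuculline and water are therefore given as levels and fold changes, with no test, and no support is drawn from them. The tests below concern other contrasts: time within bicuculline, time within water, and the presence of MM401. These share libraries with the contrasts that led to the choice.

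Nascent RNA was read by BrU-seq, in which cells take up bromouridine and build it into new transcripts, which are then captured and sequenced. Primary cultures from the cortex of CD1 mice were used on day 17 in vitro, in biological replicates of mixed sex. A preincubation of 30 min with DMSO, the solvent, or 25 µM MM401 was followed by 40 µM bicuculline-methiodide or sterile water, and 2 mM bromouridine was added to every culture in the final 30 min. MM401 blocks the binding of the histone H3 lysine 4 methyltransferase MLL1 to its partner WDR5, and bicuculline blocks GABA-A receptors, which raises the firing of the network.

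The 7 groups were DMSO with water for 4 h, DMSO with bicuculline for 1 h, DMSO with bicuculline for 4 h, MM401 with water for 1 h, MM401 with water for 4 h, MM401 with bicuculline for 1 h, and MM401 with bicuculline for 4 h. Each held 3 libraries. None of the 7 groups was DMSO with water for 1 h. The 1 h response in DMSO was therefore read against water for 4 h, and treatment and time differ together in it. Replicate 3 of MM401 with water for 4 h held 316741 counts in genes, 0.503% of the median of the others, and was left out. It held 2 counts of Vstm2l and 0 counts of each of the other 4 genes. The remaining 20 libraries held 49886348 to 87939384 counts. Replicate 1 of DMSO with water stood farther from replicates 2 and 3 of its group than other replicates did from each other, with chi-square values per degree of freedom of 45.6 and 78.5 in a range of 6.14 to 78.5 over 19 pairs. Activity genes moved with the treatment: over the 4 contrasts of bicuculline with water, Fos rose by 1.18 to 3.04, Npas4 by 3.36 to 4.44 and Bdnf by 1.93 to 2.66 on the log2 scale (edgeR's quasi-likelihood test, adjusted p at most 2.57e-05).

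Neurons answer a sustained rise in firing with a wave of transcription. Immediate early genes come first, then genes whose products change synapses and excitability, and other genes are turned down at the same time. Nascent RNA shows a fall in synthesis sooner than total RNA, since RNA made before the stimulus is not labelled. Adora2a encodes an adenosine receptor that couples to stimulatory G proteins and raises cyclic AMP, and that is best known from the striatal projection neurons that also carry the D2 dopamine receptor. Dact2 encodes a partner of Dishevelled in Wnt signalling. Vstm2l encodes a small protein with an immunoglobulin V-type domain, Ankrd63 a protein with ankyrin repeats, and Tmem121b a membrane protein, and the last 2 have been little studied.

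In the count table, on mouse build mm10, Adora2a spans chr10:75316876-75334792 on the plus strand. Ankrd63 spans chr2:118699102-118703963 and Tmem121b chr6:120488938-120493807, both on the minus strand. Vstm2l spans chr2:157914652-157944719 on the plus strand, and Dact2 spans chr17:14195229-14203831 on the minus strand. Ankrd63 and Tmem121b are short genes of 4862 and 4870 bases, Dact2 has 8603 bases, Adora2a 17917 and Vstm2l 30068. The median tested gene has 23070 bases. No other gene of the table overlaps any of the 5 on either strand.

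The 250 bases before the RefSeq start of the gene (build GRCm38.p6, the same assembly as mm10) were at hand for 3 of the 5, and are shown because these genes share their low level in bicuculline. They are written 5′ to 3′ on the strand of the gene, and capitals mark the letters GGGCGG on either strand (CCGCCC where the match is on the other strand) and TATAAA. The windows lie at chr2:118703964-118704213, chr6:120493947-120494196 and chr17:14203832-14204081, all on the minus strand. The RefSeq start of Tmem121b lies beyond the end of the gene in the count table.
Ankrd63: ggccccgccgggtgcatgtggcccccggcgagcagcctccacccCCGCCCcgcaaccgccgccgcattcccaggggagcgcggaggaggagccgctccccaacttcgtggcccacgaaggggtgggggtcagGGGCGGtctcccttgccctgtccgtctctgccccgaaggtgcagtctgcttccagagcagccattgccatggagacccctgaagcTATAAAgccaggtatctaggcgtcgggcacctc
Tmem121b: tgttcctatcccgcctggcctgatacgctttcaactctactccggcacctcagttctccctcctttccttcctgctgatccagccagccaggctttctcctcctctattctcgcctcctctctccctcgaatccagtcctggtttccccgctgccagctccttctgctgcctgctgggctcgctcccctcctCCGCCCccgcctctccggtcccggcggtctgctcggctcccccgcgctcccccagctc
Dact2: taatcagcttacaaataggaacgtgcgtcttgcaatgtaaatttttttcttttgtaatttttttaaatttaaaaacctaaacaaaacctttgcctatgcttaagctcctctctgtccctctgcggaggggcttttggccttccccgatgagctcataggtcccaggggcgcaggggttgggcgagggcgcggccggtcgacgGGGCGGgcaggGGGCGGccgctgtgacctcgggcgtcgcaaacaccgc

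The windows hold 19 (Ankrd63), 15 (Tmem121b) and 18 (Dact2) CG dinucleotides, against a median of 6.0 over 32851 windows of the same length. Of all windows 80.3%, 72.7% and 78.3% hold fewer than these, in the same order. The G and C content of the 3 windows is 70.0%, 65.2% and 54.0%, against a median of 52.4%. GGGCGG, the core of the site of the factor Sp1, begins at -206 (other strand) and -118 in Ankrd63, at -58 (other strand) in Tmem121b, and at -48 and -37 in Dact2, where -1 is the last base before the start. TATAAA, the core of a TATA box, begins at -33 in Ankrd63. On either strand 32.74% of all windows hold GGGCGG and 12.37% hold TATAAA. The other motifs searched on both strands were TGACGTCA (the cyclic AMP response element, in 1.546% of windows), its partial form TGACG, which TGACGTCA contains (17.77%), TGACTCA (the AP-1 site, 4.463%) and CACGTG (an E-box, 6.021%). None of these 4 letter strings is in the 3 windows.

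Levels are given as CPM, counts per 1000000 counts of the library total after TMM scaling. Over the 20 libraries Adora2a had 54 to 754 counts, Ankrd63 23 to 225, Tmem121b 64 to 683, Vstm2l 260 to 1358 and Dact2 72 to 620. The values of Ankrd63 are therefore the least precise. Compared per length in DMSO with water, Tmem121b had the highest level at 1.49 CPM per kb, followed by Dact2 at 0.841, Vstm2l at 0.528, Ankrd63 at 0.514 and Adora2a at 0.444. Vstm2l, Ankrd63 and Adora2a were within the spread of their libraries of each other on this scale.

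Adora2a had the deepest decline. In DMSO with water for 4 h it stood at 6.23, 7.65 and 10.01 CPM in replicates 1, 2 and 3. With bicuculline it stood at 3.13, 4.09 and 4.00 CPM at 1 h and at 1.19, 1.10 and 1.09 CPM at 4 h. The 3 groups did not overlap: every 1 h library lay below every water library, and every 4 h library below every 1 h library. Relative to the water mean, Adora2a was at 47.0% ± 6.6 (SD, n = 3) at 1 h and 14.1% ± 0.67 (SD, n = 3) at 4 h. Here and below, the SD of such a percentage is that of the bicuculline libraries over a fixed water mean. It leaves out the spread of the water libraries, whose SD was 24.0% of their mean for Adora2a in DMSO. The fitted log2 differences were -1.09 ± 0.15 (SE) at 1 h and -2.83 ± 0.16 (SE) at 4 h, and the 1 h value was 38.7% of the 4 h value. In bulk RNA, fewer cells that make a transcript and less transcript per cell cannot be told apart, here or for the other 4 genes.

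The same order was seen with MM401. Adora2a stood at 5.71, 6.51 and 6.11 CPM with water for 1 h and at 6.52 and 7.12 CPM with water for 4 h. With bicuculline it stood at 3.17, 2.85 and 3.07 CPM at 1 h and at 0.897, 1.01 and 1.30 CPM at 4 h. Both water groups lay above all bicuculline libraries, and the 4 h bicuculline libraries again lay below the 1 h libraries. The 4 h water libraries lay just above the 1 h water libraries. These levels were 49.5% ± 2.6 (SD, n = 3) of water at 1 h and 15.7% ± 3.0 (SD, n = 3) at 4 h. The log2 differences were -1.01 ± 0.15 (SE) and -2.67 ± 0.18 (SE), with 38.1% of the 4 h value present at 1 h.

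**Figure D1:**
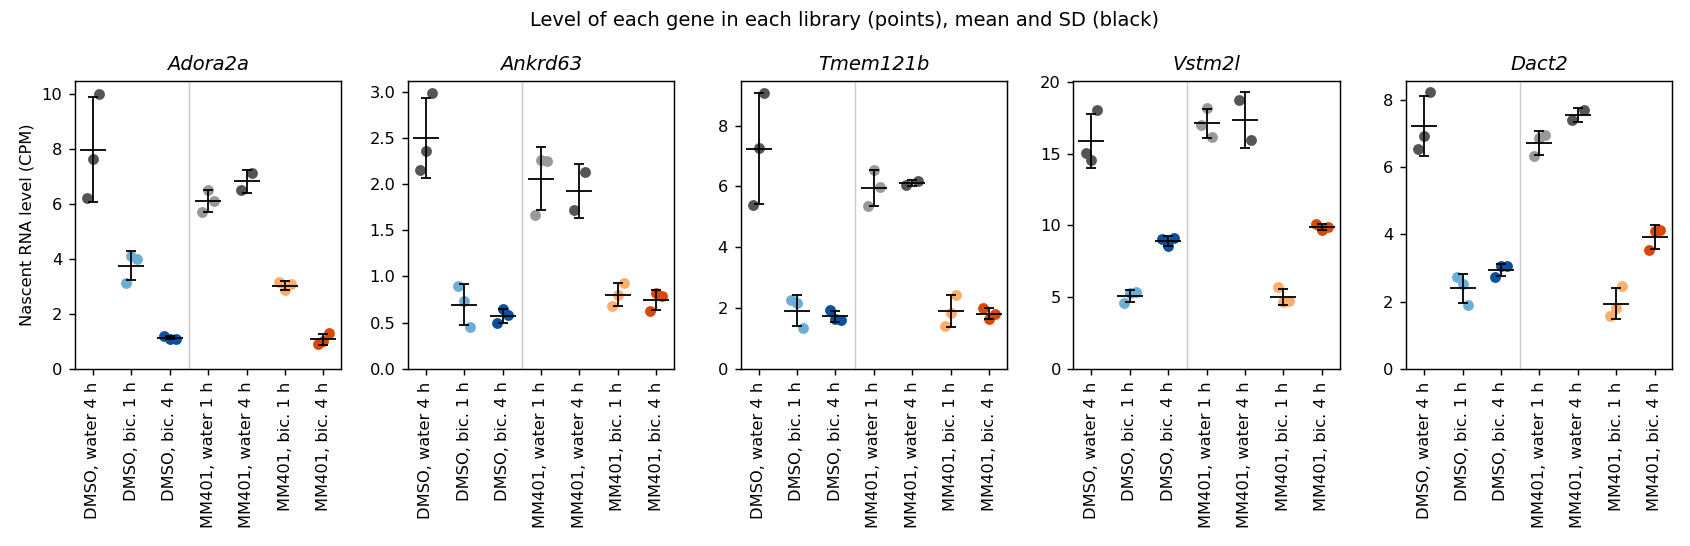
Level of each gene (y axis, CPM; each panel has its own scale from 0) in each of the 20 libraries (points) by group (x axis), with the mean and SD of the group in black; MM401 with water for 4 h has 2 libraries and every other group 3. Adora2a keeps going down from 1 h to 4 h of bicuculline, Ankrd63 and Tmem121b stay low, and Vstm2l is higher at 4 h (8.55 to 10.1 CPM) than at 1 h (4.58 to 5.68 CPM) while still below water.

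Ankrd63 and Tmem121b were low by 1 h and again at 4 h. Ankrd63 stood at 2.16, 2.36 and 2.99 CPM in DMSO with water, at 0.899, 0.733 and 0.453 CPM after 1 h of bicuculline, and at 0.495, 0.644 and 0.581 CPM after 4 h. Both bicuculline groups lay below all water libraries and overlapped each other. They were at 27.8% ± 9.0 (SD, n = 3) and 22.9% ± 3.0 (SD, n = 3) of the water mean, log2 differences of -1.82 ± 0.21 (SE) and -2.12 ± 0.21 (SE).

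With MM401, Ankrd63 stood at 1.67, 2.26 and 2.25 CPM with water for 1 h and 1.72 and 2.13 CPM with water for 4 h. It stood at 0.677, 0.800 and 0.928 CPM with bicuculline for 1 h and at 0.625, 0.823 and 0.784 CPM for 4 h. The 2 water groups overlapped, as did the 2 bicuculline groups, and no bicuculline library reached a water library. The bicuculline groups were at 39.0% ± 6.1 (SD, n = 3) and 38.7% ± 5.5 (SD, n = 3) of their water means, log2 differences of -1.35 ± 0.21 (SE) and -1.37 ± 0.23 (SE).

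Tmem121b stood at 5.40, 7.27 and 9.07 CPM in DMSO with water, at 2.25, 2.15 and 1.34 CPM after 1 h of bicuculline and at 1.93, 1.64 and 1.61 CPM after 4 h. The water libraries spread widely, replicate 1 being lowest, yet all lay above the bicuculline libraries, whose 2 times overlapped. Bicuculline brought it to 26.4% ± 6.9 (SD, n = 3) and 23.8% ± 2.4 (SD, n = 3) of the water mean, log2 differences of -1.91 ± 0.19 (SE) and -2.08 ± 0.20 (SE). In DMSO the 1 h value was 91.5% of the 4 h value for Tmem121b and 85.9% for Ankrd63.

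With MM401, Tmem121b stood at 5.35, 6.53 and 5.97 CPM with water for 1 h, 6.03 and 6.19 CPM with water for 4 h, 1.40, 1.83 and 2.44 CPM with bicuculline for 1 h and 1.99, 1.65 and 1.81 CPM for 4 h. The 2 water groups overlapped, the 2 bicuculline groups overlapped, and all bicuculline libraries lay below all water libraries. The levels were 31.8% ± 8.8 (SD, n = 3) and 29.7% ± 2.8 (SD, n = 3) of water, log2 differences of -1.64 ± 0.20 (SE) and -1.75 ± 0.21 (SE). The share of the 4 h value present at 1 h was 93.5% for Tmem121b and 98.1% for Ankrd63.

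Vstm2l was lowest at 1 h. In DMSO it stood at 15.1, 14.5 and 18.0 CPM with water, at 4.58, 5.27 and 5.32 CPM after 1 h of bicuculline and at 9.06, 8.55 and 9.14 CPM after 4 h. The 3 groups were fully separate, with the 4 h libraries between the 1 h and the water libraries. They were at 31.8% ± 2.6 (SD, n = 3) of the water mean at 1 h and 56.1% ± 2.0 (SD, n = 3) at 4 h, log2 differences of -1.65 ± 0.099 (SE) and -0.83 ± 0.095 (SE).

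With MM401, Vstm2l stood at 17.03, 18.2 and 16.2 CPM with water for 1 h and at 18.8 and 15.99 CPM with water for 4 h. With bicuculline it stood at 5.68, 4.65 and 4.70 CPM at 1 h and at 10.1, 9.69 and 9.89 CPM at 4 h. The 4 h libraries again lay between the 1 h libraries and both water groups, which overlapped. These levels were 29.2% ± 3.4 (SD, n = 3) and 56.9% ± 1.1 (SD, n = 3) of water, log2 differences of -1.78 ± 0.10 (SE) and -0.81 ± 0.10 (SE).

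Dact2 stood at 6.54, 6.92 and 8.23 CPM in DMSO with water, at 2.74, 2.54 and 1.91 CPM after 1 h of bicuculline and at 2.74, 3.06 and 3.05 CPM after 4 h. All bicuculline libraries lay below all water libraries, and the highest 1 h library was level with the lowest 4 h library. Dact2 was at 33.1% ± 6.0 (SD, n = 3) and 40.8% ± 2.5 (SD, n = 3) of the water mean, log2 differences of -1.58 ± 0.14 (SE) and -1.29 ± 0.14 (SE).

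With MM401, Dact2 stood at 6.32, 6.88 and 6.97 CPM with water for 1 h and at 7.42 and 7.72 CPM with water for 4 h. With bicuculline it stood at 1.57, 1.80 and 2.45 CPM at 1 h and at 3.52, 4.12 and 4.15 CPM at 4 h. Here the 1 h and 4 h bicuculline groups were separate, the 4 h libraries being higher, and both lay below water. Dact2 was at 28.9% ± 6.8 (SD, n = 3) of water at 1 h and 51.9% ± 4.6 (SD, n = 3) at 4 h, log2 differences of -1.78 ± 0.15 (SE) and -0.95 ± 0.15 (SE).

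All 5 genes thus had every bicuculline library below every water library of the same pretreatment, which their choice made likely. The share of all genes with such a separation was not computed, and the shares given next are of called genes. As background, edgeR's quasi-likelihood test called 44.6% of the 16959 tested genes at 1 h and 49.2% at 4 h in DMSO, and 39.9% at 1 h and 44.6% at 4 h with MM401. The shares called lower were 24.5% and 25.5% in DMSO and 21.8% and 21.7% with MM401. In DMSO the levels of the bicuculline groups ordered the genes differently at the 2 times: relative to water, Tmem121b, Ankrd63, Vstm2l and Dact2 lay between 26.4% and 33.1% at 1 h with overlapping spreads, and Adora2a was highest at 47.0%. At 4 h Adora2a was lowest at 14.1%, Ankrd63 and Tmem121b followed at 22.9% and 23.8% without differing beyond their spread, then came Dact2 at 40.8% and Vstm2l at 56.1%. Both DMSO responses were read against the same water libraries, whose own spread is not in these spreads. With MM401 the order at 1 h was Dact2 at 28.9%, Vstm2l at 29.2%, Tmem121b at 31.8%, Ankrd63 at 39.0% and Adora2a at 49.5%. The spreads of the first 3 overlapped, and that of Ankrd63 overlapped those of Tmem121b and Dact2. At 4 h it was Adora2a at 15.7%, Tmem121b at 29.7%, Ankrd63 at 38.7%, and Dact2 and Vstm2l at 51.9% and 56.9%, which overlapped in their spread.

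The declines in DMSO were also computed without replicate 1 of DMSO with water, the library that stood apart. The log2 differences at 1 h were then -1.24 for Adora2a, -1.91 for Ankrd63, -2.07 for Tmem121b, -1.69 for Vstm2l and -1.65 for Dact2. At 4 h they were -2.98, -2.21, -2.25, -0.87 and -1.36 in the same order of genes. All 10 values were slightly farther from 0 than with that library, and the order of the genes at 4 h changed only between Tmem121b and Ankrd63.

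**Figure D2:**
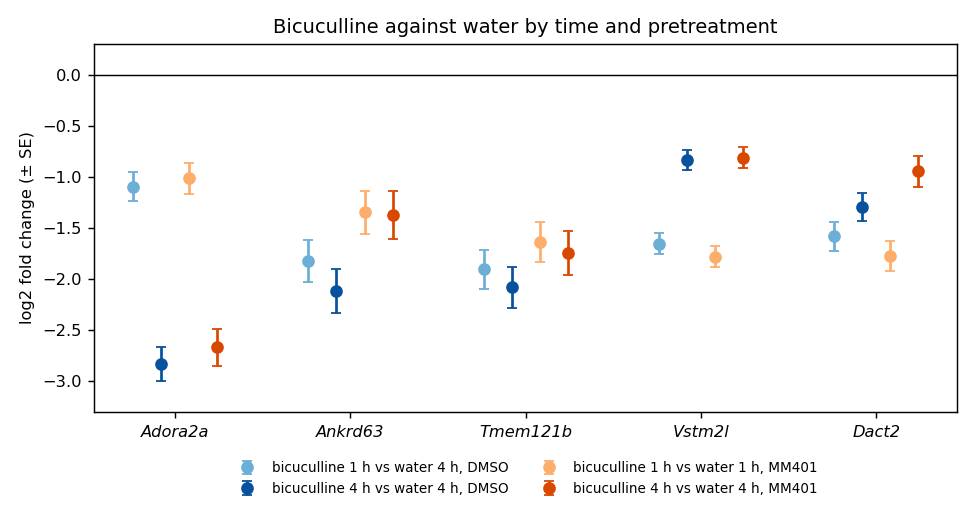
Fitted log2 difference of bicuculline from water (y axis, point with SE bar) for each gene (x axis) at 1 h and 4 h in DMSO (blue) and with MM401 (orange). The lowest point is Adora2a at 4 h in DMSO at -2.83, and the 4 h points of Vstm2l, at -0.83 and -0.81, lie above its 1 h points.

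Among the 11837 tested genes with at least 2 CPM in DMSO with water, ranked by the 1 h log2 difference, Tmem121b was in place 1, Ankrd63 in place 3, Vstm2l in place 6, Dact2 in place 8 and Adora2a in place 32. At 4 h in DMSO Adora2a held place 1, Ankrd63 place 3, Tmem121b place 4, Dact2 place 40 and Vstm2l place 278. Vstm2l thus ranked near the top at 1 h and far lower at 4 h. With MM401 the places at 1 h, among 11794 genes, were 2 for Vstm2l, 3 for Dact2, 5 for Tmem121b, 13 for Ankrd63 and 46 for Adora2a. At 4 h, among 11721 genes, they were 1 for Adora2a, 18 for Tmem121b, 168 for Dact2 and 288 for Vstm2l. Ankrd63 was then under 2 CPM in water and had no place. The floor of 2 CPM in water removes low genes, some of which had larger fitted declines. Among all 16959 tested genes the places at 1 h in DMSO were 11 for Tmem121b, 13 for Ankrd63, 23 for Vstm2l, 30 for Dact2 and 144 for Adora2a. At 4 h in DMSO they were 2 for Adora2a, 19 for Ankrd63, 25 for Tmem121b, 181 for Dact2 and 727 for Vstm2l. With MM401 they ran from 19 (Vstm2l) to 189 (Adora2a) at 1 h, and at 4 h they were 13 for Adora2a, 88 for Tmem121b, 207 for Ankrd63, 553 for Dact2 and 776 for Vstm2l. Genes outside the 5 had low values too. Among those with at least 2 CPM in DMSO with water, the lowest at 1 h in DMSO were Emx1, a transcription factor of cortical neurons, at -1.82, Gpr12 at -1.80 and Hes5, a target of Notch, at -1.77. With the same floor, those at 4 h in DMSO were Scn4b, a sodium channel subunit, at -2.31, Drd2, the D2 dopamine receptor, at -2.06 and Oprd1, the delta opioid receptor, at -1.87.

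The change from 1 h to 4 h of bicuculline was tested with edgeR's quasi-likelihood test and Benjamini-Hochberg adjustment over all 16959 genes. The same bicuculline libraries led to the choice of the 5 genes. A gene chosen for a low value at 1 of the times would tend to differ from the other time. The p-values of this contrast, in DMSO and with MM401, are therefore not independent of the choice. In DMSO 2 of the 5 genes were called, where 34.2% of all tested genes were called, 15.2% lower and 19.1% higher at 4 h. Adora2a fell by 1.74 ± 0.17 (SE) on the log2 scale (adjusted p = 4.47e-08) and Vstm2l rose by 0.82 ± 0.10 (SE) (adjusted p = 1.10e-06), each in 3 of 3 libraries beyond all libraries of the other time. Dact2 differed by 0.29 ± 0.15 (SE), with a 95% interval of -0.01 to 0.60 (adjusted p = 0.136). Ankrd63 differed by -0.30 ± 0.24 (SE), interval -0.79 to 0.19 (adjusted p = 0.364), and Tmem121b by -0.18 ± 0.21 (SE), interval -0.61 to 0.26 (adjusted p = 0.568). The intervals of Ankrd63 and Tmem121b leave room for a change of up to about their bounds in either direction. That of Dact2 leaves room mainly for a rise.

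With MM401, 3 of the 5 genes were called between 1 h and 4 h of bicuculline, against 33.6% of all tested genes (16% lower, 17.5% higher). Adora2a fell by 1.49 ± 0.17 (SE) (edgeR, adjusted p = 6.77e-07). Vstm2l rose by 0.99 ± 0.10 (SE) (edgeR, adjusted p = 1.23e-07) and Dact2 by 1.00 ± 0.15 (SE) (edgeR, adjusted p = 1.96e-05). Ankrd63, at -0.12 with an interval of -0.61 to 0.36, and Tmem121b, at -0.08 with an interval of -0.52 to 0.37, did not pass (edgeR, adjusted p = 0.728 and 0.825).

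Dact2 was called with MM401 but not in DMSO, so the difference between these 2 changes was tested, a test added after the values were seen. The rise of Dact2 was larger with MM401 by 0.71 ± 0.21 (SE), interval 0.27 to 1.14, with an unadjusted p of 0.00276 and an adjusted p of 0.700 in edgeR. It therefore did not pass. For Adora2a, Ankrd63, Tmem121b and Vstm2l this difference ran from 0.10 to 0.24 with adjusted p of 0.795 to 0.960 in edgeR. None of the 5 was called, where edgeR called 0 of all genes (0%) after adjustment, 1195 at an unadjusted p under 0.05, and DESeq2 called 0.

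No change with time in water was detectable at this spread. Between 4 h and 1 h of water with MM401, edgeR called none of the 5, against 0.867% of all genes (147 in edgeR, 275 in DESeq2). Adora2a differed by 0.16 ± 0.16 (SE), Ankrd63 by -0.10 ± 0.22 (SE), Tmem121b by 0.04 ± 0.20 (SE), Vstm2l by 0.02 ± 0.10 (SE) and Dact2 by 0.17 ± 0.15 (SE), with adjusted p of 0.816 to 0.989. The 2 libraries at 4 h lay above the 3 at 1 h for Adora2a and Dact2, and the times overlapped for the other 3. The widest of these 95% intervals, that of Ankrd63, ran from -0.55 to 0.35.

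**Figure D3:**
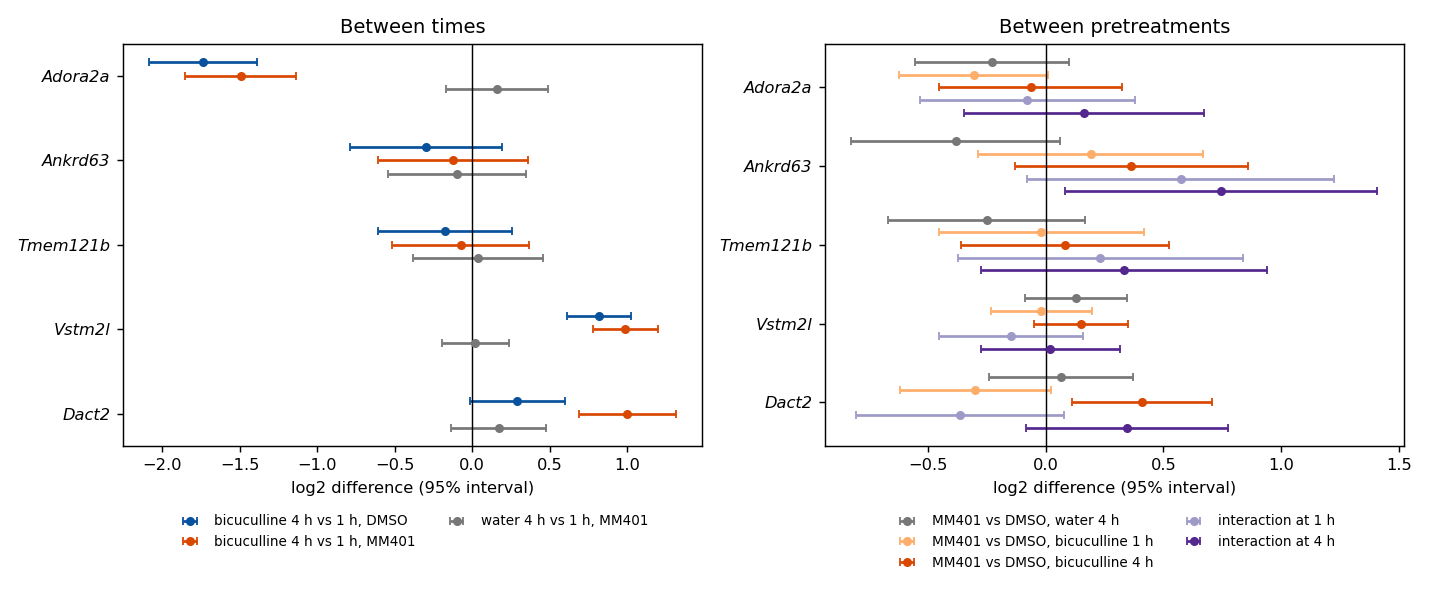
Tested log2 differences (x axis, point with 95% interval) for each gene (y axis), between times on the left and between pretreatments on the right; the vertical line marks 0. Adora2a lies left of 0 and Vstm2l right of 0 for 4 h against 1 h of bicuculline in both pretreatments, Dact2 passed with MM401 (1.00) and not in DMSO (0.29), with no pass for the difference between them, and no gene passed the adjusted threshold on the right.

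MM401 was compared with DMSO in each condition that both pretreatments had. In water for 4 h none of the 5 genes was called, where 0.0826% of all genes were (14 in edgeR, 166 in DESeq2). The differences were -0.23 ± 0.16 (SE) for Adora2a, -0.38 ± 0.21 (SE) for Ankrd63, -0.25 ± 0.20 (SE) for Tmem121b, 0.13 ± 0.10 (SE) for Vstm2l and 0.06 ± 0.15 (SE) for Dact2 (edgeR, adjusted p of 0.443 to 0.870). Resting levels of the 5 genes thus could not be told apart between MM401 and DMSO at this spread, with a lower bound of -0.83 for Ankrd63. Without replicate 1 of DMSO with water, edgeR called 1272 of all genes here in place of 14, and still none of the 5. Adora2a then differed by -0.37, Ankrd63 by -0.47, Tmem121b by -0.42 and Vstm2l by 0.09 (edgeR, adjusted p of 0.127 to 0.629), and Dact2 by less than 0.001.

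After 1 h of bicuculline none was called (0.0059% of all genes were, 1 in edgeR and 13 in DESeq2), and the differences of MM401 from DMSO were -0.31 ± 0.15 (SE) for Adora2a, 0.19 ± 0.23 (SE) for Ankrd63, -0.02 for both Tmem121b and Vstm2l, and -0.30 ± 0.15 (SE) for Dact2, with an adjusted p of 0.999 for each in edgeR. After 4 h none was called either, where edgeR called 0% of all genes, 1309 at an unadjusted p under 0.05, and DESeq2 called 7 genes. Dact2 was higher with MM401 by 0.41 ± 0.14 (SE), interval 0.11 to 0.71, in 3 of 3 libraries above all DMSO libraries (edgeR, unadjusted p = 0.00897, adjusted p = 0.639). Ankrd63 differed by 0.36 ± 0.24 (SE), Vstm2l by 0.15 ± 0.10 (SE), Tmem121b by 0.08 ± 0.21 (SE) and Adora2a by -0.06 ± 0.19 (SE), none past the threshold.

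The interaction, the response to bicuculline with MM401 minus that in DMSO, asks whether the decline itself differed. At 4 h it was 0.75 ± 0.32 (SE) for Ankrd63, a smaller decline with MM401, with an interval of 0.08 to 1.41 (edgeR, unadjusted p = 0.0293, adjusted p = 0.285). It was 0.35 ± 0.21 (SE) for Dact2, 0.33 ± 0.29 (SE) for Tmem121b, 0.16 ± 0.25 (SE) for Adora2a and 0.02 ± 0.14 (SE) for Vstm2l (edgeR, adjusted p of 0.422 to 0.959). None of the 5 was called at 4 h, where edgeR called 0% of genes, 2552 at an unadjusted p under 0.05, and DESeq2 called 294 genes. DESeq2 gave an adjusted p to 3807 genes in this contrast and to none of the 5, so its count says nothing about them. At 1 h, with both responses read against water for 4 h, the interaction was 0.57 ± 0.31 (SE) for Ankrd63, 0.23 ± 0.29 (SE) for Tmem121b, -0.08 ± 0.22 (SE) for Adora2a, -0.15 ± 0.15 (SE) for Vstm2l and -0.36 ± 0.21 (SE) for Dact2. Again none was called, where edgeR called 0%, 1326 at an unadjusted p under 0.05, and DESeq2 called 10 genes. For Vstm2l the 4 h interval of -0.27 to 0.31 is the narrowest, and that of Ankrd63 runs up to a decline 1.41 smaller on the log2 scale. Without replicate 1 of DMSO with water, edgeR called 1551 genes at 4 h and 97 at 1 h, and again none of the 5. Ankrd63 was then at 0.84 at 4 h (edgeR, adjusted p = 0.110) and 0.66 at 1 h (edgeR, adjusted p = 0.330), and the other 4 ran from 0.05 to 0.50 at 4 h and from -0.30 to 0.40 at 1 h.

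Genes with the most similar pattern were taken as those with the smallest root mean square difference over the 7 group means of log2 CPM, each gene centred on its own mean, among 12807 candidates. The groups share a depth scale and few libraries, so this is a description. Ankrd63 and Tmem121b were each other's nearest gene, at a distance of 0.156 log2 units, and Vstm2l and Dact2 were each other's nearest, at 0.159. Among these genes Adora2a was nearest to Tmem121b, at 0.583, and Ankrd63, at 0.589, and farther from Dact2, at 0.895, and Vstm2l, at 0.994. Its nearest genes were Drd2 at 0.242, Oprd1 at 0.340 and Ntsr1, a neurotensin receptor, at 0.389. The log2 differences of Drd2 were -0.70 at 1 h and -2.06 at 4 h in DMSO, and -0.76 and -2.24 with MM401. Ankrd63 was followed by Ccdc177 at 0.230 and Sstr3, a somatostatin receptor, at 0.246, and Tmem121b by Zbtb8b at 0.258 and Scn4b at 0.261. Prrt3 and Zbtb8b were the next genes for both Vstm2l (0.195 and 0.213) and Dact2 (0.170 and 0.164).

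**Figure D4:**
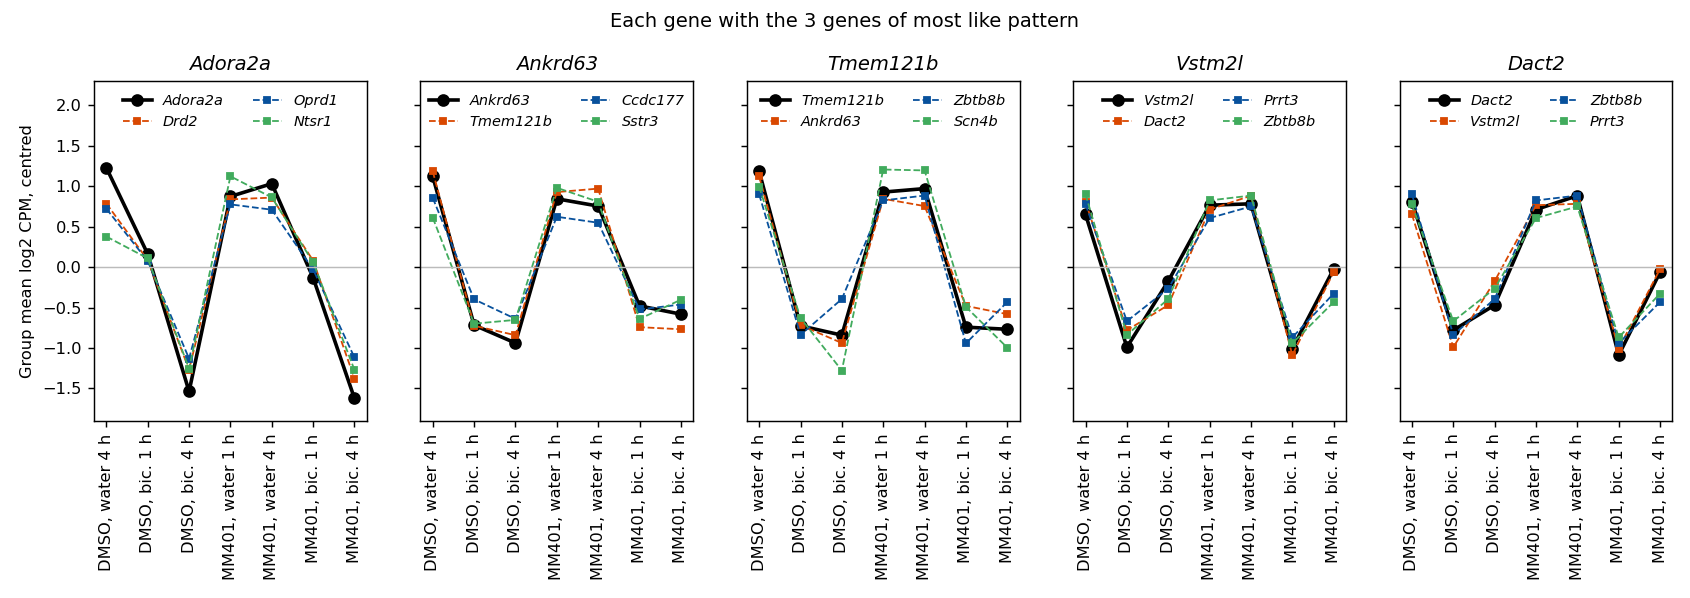
Group means of log2 CPM, each gene centred on its own mean over the 7 groups (y axis), for each of the 5 genes (black) and its 3 nearest genes (colours) by group (x axis); lines only join the points of 1 gene. Adora2a has its lowest points at 4 h of bicuculline, as do Drd2, Oprd1 and Ntsr1, while Vstm2l and Dact2 have theirs at 1 h.

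The tested neighbours on the chromosome differed from the 5 genes in the size, direction or timing of their values. Specc1l, 4476 bases from Adora2a on the same strand and expressed at 126 CPM, differed by -0.17 at 1 h and -0.10 at 4 h in DMSO. Pak6, a kinase gene 1082 bases from Ankrd63 on the opposite strand, rose by 0.84 at 1 h and 0.61 at 4 h in DMSO and by 0.75 and 0.44 with MM401 (edgeR, adjusted p at most 0.00032). Plcb2, on the other side of Ankrd63, was not called in any of these contrasts. Of the genes beside Tmem121b, Il17ra was not called in any contrast of bicuculline with water. The other, Hdhd5, fell by 0.55 at 1 h and 0.49 at 4 h in DMSO. Beside Vstm2l, Ctnnbl1 fell by 0.16 and 0.65 and Tti1 by 0.46 and 0.47 at these times. Smoc2, 75674 bases from Dact2, fell by 1.48 at 4 h in DMSO, similar in size to Dact2, but differed by only -0.02 at 1 h, when Dact2 was at -1.58. Gm5779 and Gm7168, the other neighbours of Adora2a and Dact2, were too low to be tested.

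**Figure D5:**
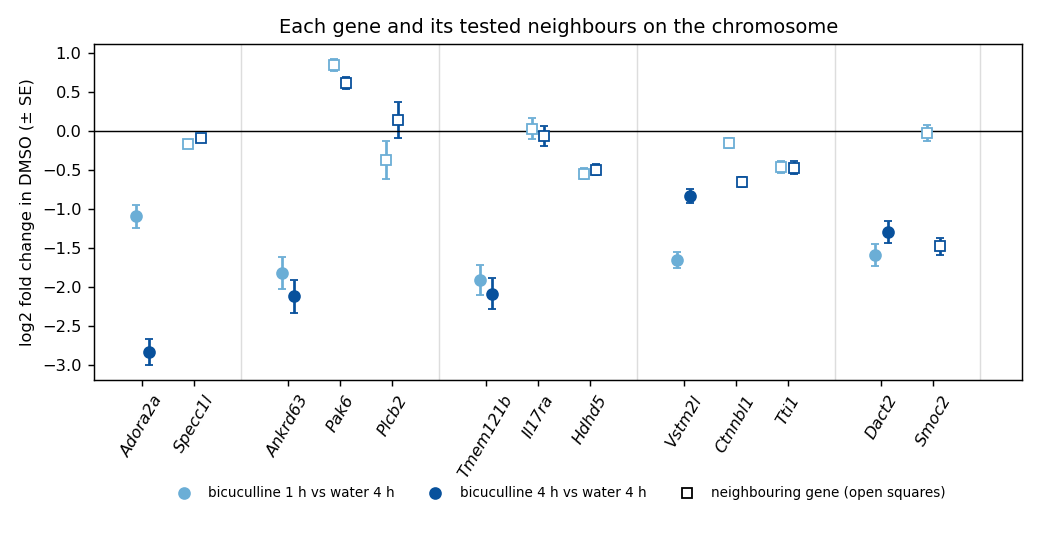
Log2 difference of bicuculline from water for 4 h in DMSO (y axis, point with SE bar) at 1 h (light blue) and 4 h (dark blue) for each of the 5 genes (filled circles) and its tested neighbours on the chromosome (open squares), parted by grey lines. Each of the 5 lies below its neighbours at 1 h, and Pak6 beside Ankrd63 lies above 0 at 0.84 and 0.61.

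Genes listed around adenosine signalling, 19 of 20 tested, moved in both directions. The list includes Drd2, a dopamine receptor gene, and shares Drd2, Adcy5 and Pde10a with the striatal markers given below. At 4 h in DMSO 8 rose and 5 fell, with a median log2 difference of 0.28 against -0.02 over all genes, where 23.7% of all genes rose and 25.5% fell. At 1 h 6 rose and 2 fell, where 20% of all genes rose and 24.5% fell. In DMSO at 4 h Drd2 fell by 2.06. At that time Pde10a and Pde4d, which break down cyclic nucleotides, rose by 0.84 and 0.69, and Entpd3, which breaks down extracellular ATP, rose by 0.68. Adora1, the inhibitory A1 adenosine receptor, named here after its values were seen, rose by 0.36 at 4 h in DMSO and by 0.52 with MM401, the opposite direction to Adora2a. With MM401, 9 rose and 2 fell at 1 h, where 18.1% of all genes rose and 21.8% fell, and 6 rose and 5 fell at 4 h, where 23% rose and 21.7% fell. Without replicate 1 of DMSO with water, 7 rose and 4 fell at 1 h and 7 rose and 5 fell at 4 h in DMSO, and the medians were 0.05 in place of 0.12 at 1 h and 0.12 in place of 0.28 at 4 h.

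Of 20 genes of the Dact family and its Wnt and Dishevelled partners, all tested, 9 rose and 4 fell at 4 h in DMSO (median 0.09), and 8 rose and 4 fell at 1 h (median 0.06). Of all tested genes 23.7% rose and 25.5% fell at 4 h, and 20% rose and 24.5% fell at 1 h. Dact1, the paralogue of Dact2, rose by 1.16 at 1 h and 0.91 at 4 h in DMSO and by 1.15 and 1.12 with MM401 (edgeR, adjusted p at most 2.6e-06). Lef1, a transcription factor of the Wnt pathway, rose by 2.31 at 4 h in DMSO, and the Wnt receptor gene Fzd3 rose by 0.77. Celsr2, a cadherin of the planar polarity pathway, fell by 0.55 in the same contrast. With MM401 9 rose and 2 fell at 1 h, where 18.1% of all genes rose and 21.8% fell, and 7 rose and 3 fell at 4 h, where 23% rose and 21.7% fell.

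Of 4 genes named like Vstm2l, Vstm2a and Vstm2b fell at 1 h in DMSO, by 0.45 and 0.57 (edgeR, adjusted p = 1.07e-05 and 2.64e-06), where 24.5% of all genes fell. At 4 h in DMSO Vstm5 and Vstm2b fell by 0.70 and 0.27, where 25.5% of all genes fell, and none of the 4 rose at either time. With MM401 Vstm2b fell by 0.71 and Vstm5 by 0.66 at 1 h, and at 4 h Vstm5 fell by 0.77 while Vstm2a rose by 0.35. Of all genes 21.8% fell at 1 h with MM401, and 21.7% fell and 23% rose at 4 h. Tmem121, the paralogue of Tmem121b, fell at 1 h by 0.80 in DMSO and 0.91 with MM401 (edgeR, adjusted p = 0.021 and 0.014). At 4 h it was at -0.62 and -0.58, not called, but in DMSO it was called at 4 h, at -0.79, without replicate 1 of DMSO with water. Among 41 tested genes of the Ankrd series apart from Ankrd63, 12 rose and 15 fell at 4 h in DMSO, with a median of -0.08, where 23.7% of all genes rose and 25.5% fell. At 1 h in DMSO 9 rose and 13 fell, where 20% of all genes rose and 24.5% fell. With MM401 7 rose and 12 fell at 1 h, where 18.1% of all genes rose and 21.8% fell, and 9 rose and 12 fell at 4 h, where 23% rose and 21.7% fell. In DMSO at 4 h Ankrd34c rose by 1.38, Ankrd33b by 0.82 and Ankrd50 by 0.71, and Ankrd34a fell by 1.21.

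Adora2a is also a marker of striatal projection neurons, which a cortical culture can hold in small number. Of 20 other markers of these cells 19 were tested (Gpr52 was too low), and at 4 h in DMSO 11 rose and 4 fell, where 23.7% of all tested genes rose and 25.5% fell. With MM401 12 rose and 3 fell at 4 h, where 23% and 21.7% of all genes did. At 1 h 10 rose and 4 fell in DMSO, where 20% and 24.5% of all genes did. With MM401 10 rose and 3 fell at 1 h, where 18.1% and 21.8% of all genes did. In DMSO at 4 h Scn4b fell by 2.31 and Drd2 by 2.06, while the peptide genes Pdyn and Penk rose by 1.91 and 1.78. The other 2 that fell at 4 h in DMSO were Ppp1r1b and Adcy5. The summed level of the 19 markers is carried by a few abundant genes: in DMSO with water Pde10a had a mean of 969 CPM, Meis2 822 CPM, Foxp1 659 CPM and Rarb 313 CPM. Drd2 had 39.6 CPM and Scn4b 4.47 CPM, and these 2 went to 9.51 and 0.90 CPM after 4 h of bicuculline in DMSO. The sum was 2827 to 3380 CPM in DMSO with water, 3871 to 4614 CPM after 1 h and 4725 to 5119 CPM after 4 h of bicuculline. With MM401 it was 3208 to 3403 CPM in water for 1 h, 3311 to 3521 CPM in water for 4 h, 4064 to 4869 CPM after 1 h of bicuculline and 4005 to 4409 CPM after 4 h. The sum was thus above water in every bicuculline group, and with MM401 its values at 1 h and 4 h overlapped. As a few abundant genes carry it, it does not show the course of scarcer markers such as Drd2 and Scn4b. Its bearing on the decline of Adora2a was not tested.

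The cultures held markers of the labelled tissue: the 10 cortical excitatory markers were all tested, at a summed 758 to 945 CPM in DMSO with water and 1216 to 1284 CPM after 4 h of bicuculline, when 5 rose and 3 fell. Of all tested genes 23.7% rose and 25.5% fell in that contrast. Of the 9 tested interneuron markers 3 rose and none fell in that contrast, and of 8 astrocyte markers 1 rose and none fell. The summed level of the interneuron markers went from 1304 to 1660 CPM in water to 1959 to 2146 CPM, and that of the astrocyte markers was 1135 to 1618 CPM and 1350 to 1478 CPM. Of 8 markers of the oligodendrocyte lineage 3 rose and none fell, at 168 to 196 CPM in water and 203 to 217 CPM in bicuculline. Microglial markers (7 tested, 2 rose) summed to 35.3 to 41.5 CPM in water and 42.6 to 51.2 CPM in bicuculline. Endothelial markers (3 tested, Cldn5 and Cdh5 being too low) summed to 2.33 to 3.89 CPM in all groups. At 1 h in DMSO 4 cortical excitatory markers rose and 2 fell, and 3 astrocyte markers rose and 1 fell. Of the interneuron markers 4 rose and of the oligodendrocyte markers 2 rose, and none of either fell. Of all genes 20% rose and 24.5% fell at 1 h in DMSO. Without replicate 1 of DMSO with water, 2 astrocyte markers rose and 2 fell at 1 h, and 1 oligodendrocyte marker rose and 2 fell. At 4 h in DMSO without that library, 1 astrocyte marker fell and none rose, and 3 oligodendrocyte markers rose and 1 fell. With MM401, 7 of the 9 interneuron markers rose at 1 h and 4 at 4 h, and 5 of the 8 astrocyte markers rose at 1 h and 4 at 4 h. Of the microglial markers 5 of 7 rose at 4 h with MM401, and 3 of 8 oligodendrocyte markers. None of these 4 lists had a member that fell from water at 1 h or 4 h of bicuculline with MM401. Of the 10 cortical excitatory markers 5 rose and 3 fell at 1 h with MM401, and 4 rose and 2 fell at 4 h. Of all genes 18.1% rose and 21.8% fell at 1 h with MM401, and 23% rose and 21.7% fell at 4 h. The part of these shifts in the declines of the 5 genes was not tested.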

How the data were processed

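The authors deposited 1 table of raw read counts per gene over the whole gene span. Bowtie2, featureCounts, UMI-tools, DESeq2 and deepTools and build mm10 are named in the submitters' processing notes, with no versions. Strand use, multimapping and annotation release are not given in the sources used here. Introns therefore count, and levels follow synthesis over the labelling time.

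The counts went into edgeR 4.0.16 (R 4.3.3, with limma 3.58.1): filterByExpr by group (minimum count 10, total 15; 16959 genes kept), TMM, a mean per group over 20 libraries, robust quasi-likelihood tests, two-sided, called at a Benjamini-Hochberg adjusted p under 0.05 over all genes. DESeq2 1.42.0 was an alternative. All 5 genes passed the filter. The fit was tested on simulated data. A list's named genes are up to 4 called ones with the largest change at 4 h in DMSO. Similar patterns needed a mean of 1 CPM, with a prior count of 2. The genes and lists were chosen with earlier results of these data known.

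The labels do not say what a replicate number stands for. Same-numbered deviations correlated above 0.1 in 25 of 57 pairs of libraries. All 3 pairs did so for MM401 against DMSO at 4 h of bicuculline (0.150, 0.107 and 0.172), and between DMSO with water and MM401 with water for 1 h (0.278, 0.114 and 0.154) or with bicuculline for 4 h (0.144, 0.101 and 0.198).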

Additional observations from a re-analysis of the deposited data

How the results depend on the processing

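The counts of called genes among the 5 (2 for bicuculline 4 h against 1 h in DMSO, 3 with MM401, 0 elsewhere) were the same under every alternative that gave them adjusted p-values (DESeq2 gave none for the interaction at 4 h): all 21 libraries, DESeq2, RLE scaling, plain library size, no filter, only the groups compared, a replicate block, and each library left out. The calls over all genes moved more: with 1 library left out they ran from 14 to 280 for water 4 h against 1 h, from 0 to 1272 for MM401 against DMSO in water, from 0 to 4 at 1 h of bicuculline, and from 0 to 97 (1 h) and 0 to 1551 (4 h) for the interactions. The highest counts for water, MM401 in water and the interactions were without replicate 1 of DMSO with water. With all 21 libraries the calls over all genes were 3745 in place of 5805 (bicuculline 4 h against 1 h, DMSO), 3646 in place of 5691 (with MM401), 19 in place of 147 (water) and 0 in place of 14 (MM401 in water). The fit of only the groups compared gave 328 for water and 0 for MM401 in water, plain library size gave 4 for the latter, the block gave 4 in place of 1 for MM401 at 1 h of bicuculline, and water for 1 h as the MM401 reference gave 233 in place of 0 for the interaction at 1 h. Under the replicate block Dact2 differed by 0.41 between MM401 and DMSO at 4 h of bicuculline (adjusted p = 0.498), and the block changed no call among the 5. Plain library size shifted the median of all genes by -0.28 at 4 h in DMSO, -0.19 at 1 h in DMSO and -0.21 at 1 h with MM401. It gave log2 differences from water at 4 h in DMSO of -3.12 for Adora2a, -2.40 for Ankrd63, -2.37 for Tmem121b, -1.11 for Vstm2l and -1.57 for Dact2. Relative to the shifted median (-0.30) these were -2.82, -2.10, -2.07, -0.81 and -1.27. Plain library size also gave Vstm2l -1.85 at 1 h in DMSO, -1.99 at 1 h and -0.89 at 4 h with MM401, and Adora2a -1.23 at 1 h with MM401.

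Leaving out 1 library moved the difference from water within -1.24 to -0.88 (1 h) and -2.98 to -2.66 (4 h) for Adora2a in DMSO. The 4 h ranges were -2.25 to -1.92 for Tmem121b and -0.91 to -0.76 for Vstm2l in DMSO, and -0.96 to -0.72 for Vstm2l with MM401. Small differences, none called, changed sign. For water 4 h against 1 h these were Vstm2l (-0.0215 with all 21 libraries, -0.0402 with plain library size) and Tmem121b (-0.0252 with plain library size). For MM401 against DMSO with plain library size they were Dact2 in water (-0.0302) and Adora2a at 4 h of bicuculline (0.0506). For the interactions they were Vstm2l at 4 h (-0.0124 with RLE) and Adora2a at 1 h (0.0798 against water for 1 h). With 1 library left out, the ranges that crossed 0 were, for 4 h against 1 h of bicuculline with MM401, -0.24 to 0.13 for Tmem121b. For water 4 h against 1 h they were -0.25 to 0.0513 for Ankrd63, -0.0326 to 0.11 for Tmem121b and -0.10 to 0.14 for Vstm2l. For MM401 against DMSO they were -0.0003 to 0.17 for Dact2 in water, -0.016 to 0.40 for Ankrd63, -0.27 to 0.14 for Tmem121b and -0.11 to 0.031 for Vstm2l at 1 h of bicuculline, and -0.24 to 0.0511 for Adora2a at 4 h. For the interaction they were -0.29 to 0.0658 for Adora2a and -0.0204 to 0.40 for Tmem121b at 1 h, and -0.0321 to 0.31 for Adora2a and -0.10 to 0.14 for Vstm2l at 4 h. For the added difference of time courses they were -0.0377 to 0.38 for Ankrd63 and -0.0603 to 0.35 for Tmem121b. The cause was not tested.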
